A study of Mus musculus with 11 samples.

Results

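The histone mark H3K27ac was compared across lines with RNA polymerase II at gene ends: H3K27ac was profiled in the mouse tumour cell line M00002 and the polymerase subunit Rpb1 in the mouse tumour cell line M00001. An H3K27ac region was a stretch where peaks of both M00002 antibodies, ac4729 and ac647, overlapped, and Rpb1 was taken from the M00001 lists written S5 and S2. Peaks that overlapped an IgG peak of either line were removed, chromosomes 1 to 19 and X were kept, and a gene carried a mark when a region or peak lay within 1 kb of either of its ends. By this rule 9539 of 21631 protein-coding genes carried H3K27ac, S5 or S2. The comparison asked which active promoters the 2 lines had in common and which were marked in only 1 of them.

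The assay was CUT&RUN, in which antibody-tethered nuclease cuts DNA around a bound protein inside opened cells and the freed fragments are sequenced. The series holds 11 libraries of 2 untreated tumour-derived lines, and HA libraries, described in the labels for an HA-tagged CRfus1 protein, were made from both; the series title names the ZFTA-RELA fusion and supratentorial ependymoma. From M00002 came HA, p65, IgG and the H3K27ac libraries, and from M00001 came HA, p300, Cbp, IgG and the Rpb1 libraries, so mark and line were the same split and cannot be told apart. Each line carries its own mouse identifier, is 1 culture model grown as adherent cells in neural medium with bFGF and EGF, and has 1 library per target, so no difference here has a replicate check. The age of the mice and the promoter that drove the fusion are not given in the sources used here.

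Acetylation of lysine 27 on histone H3 is written mainly by p300 and Cbp and is found on nucleosomes beside open promoters and enhancers. Rpb1 is the largest polymerase subunit and has a long repeated tail; phosphorylation on serine 5 of the repeat is known for polymerase near the start of genes, and on serine 2 for polymerase that is elongating. The labels give the antibodies as S5 and S2 and say nothing more about the epitopes.

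Promoter sequence of 4 genes is shown because the CpG content of the start was lower in genes with H3K27ac alone than in genes with all 3 marks or with Rpb1 alone. Each run holds the 250 bases before the annotated start, 5′ to 3′ on the gene's strand, from RefSeq on GRCm38.p6, with CG dinucleotides in capitals. At Tbl2 this promoter start differs from the gene end used to call marks, chr5:135149429, so its run lies inside the gene as counted here. Txn1 (chr4:57956412-57956661, minus strand) led the genes with H3K27ac, S5 and S2. Tekt5 (chr16:10395456-10395705, minus strand) was among the leading genes with H3K27ac and no Rpb1 peak. Tbl2 (chr5:135149436-135149685, plus strand) led the genes with S5 and S2 and no H3K27ac region, and H4c3 (chr13:23698459-23698708, minus strand) was a histone gene with S5 alone.
Txn1: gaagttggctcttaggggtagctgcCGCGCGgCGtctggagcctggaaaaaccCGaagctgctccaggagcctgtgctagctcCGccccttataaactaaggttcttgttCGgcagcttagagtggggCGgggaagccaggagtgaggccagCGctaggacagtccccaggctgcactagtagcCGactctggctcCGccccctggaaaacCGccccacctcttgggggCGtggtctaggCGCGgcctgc
Tekt5: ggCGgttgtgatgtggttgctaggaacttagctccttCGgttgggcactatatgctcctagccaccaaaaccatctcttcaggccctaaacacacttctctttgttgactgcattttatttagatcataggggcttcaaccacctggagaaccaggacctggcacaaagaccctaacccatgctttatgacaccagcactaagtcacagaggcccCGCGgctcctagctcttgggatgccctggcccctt
Tbl2: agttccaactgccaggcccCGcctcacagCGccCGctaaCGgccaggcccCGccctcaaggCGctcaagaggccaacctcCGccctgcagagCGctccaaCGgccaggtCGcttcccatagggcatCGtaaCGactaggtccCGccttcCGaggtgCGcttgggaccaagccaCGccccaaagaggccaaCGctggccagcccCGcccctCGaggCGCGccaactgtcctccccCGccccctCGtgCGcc
H4c3: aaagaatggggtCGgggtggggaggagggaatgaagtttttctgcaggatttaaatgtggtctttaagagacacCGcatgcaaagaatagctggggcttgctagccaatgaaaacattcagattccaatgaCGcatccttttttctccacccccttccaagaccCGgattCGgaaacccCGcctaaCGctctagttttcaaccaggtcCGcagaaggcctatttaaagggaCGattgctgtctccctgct
These stretches held 15 CG dinucleotides at Txn1, 4 at Tekt5, 24 at Tbl2 and 9 at H4c3. The letters TATAAA stood in the run of Txn1, and those of CCAAT in the run of H4c3.

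After removal of IgG-overlapping peaks, 28814 peaks remained for ac4729, 14978 for ac647, 9331 for S5 and 21151 for S2. The removal took 2.02% of ac4729, 6.24% of ac647, 10.7% of S5 and 5.44% of S2 peaks on these chromosomes. Median peak widths were 453 bp for ac4729, 344 bp for ac647, 284 bp for S5 and 348 bp for S2. The H3K27ac antibodies overlapped in 10271 regions. Read depth is unknown, because peak lists hold no read totals, and list length may itself follow depth. The lists come from bulk cultures, so a mark in a part of the cells and a weaker mark in every cell cannot be told apart.

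Marker genes gave a mixed picture of cell identity. Over all protein-coding genes an H3K27ac region lay at 11.6%, S5 at 20.7%, S2 at 40.4% and none of these at 55.9%. Of 10 radial glia genes, Vim, an intermediate filament gene, carried all 3 marks, and Sox9, a glial transcription factor, carried H3K27ac alone. Nes carried H3K27ac and S2, Hes1 carried H3K27ac and S5, and Slc1a3 carried S2 alone beside an ac4729 peak of 3.33. The other 5, including Sox2, Pax6 and Hopx, carried none. Of 8 ependymal genes none had an H3K27ac region of both antibodies. Ccno had S5 and S2, Mcidas had S5 and Foxj1 had S2. An ac4729 peak without ac647 lay at 4 of the 8, Foxj1, Gmnc, Tmem212 and Cfap126. Over all genes 32.1% had an ac4729 peak. S2 alone was found at 2 of 7 neuron genes, Map2 and Tubb3, 2 of 7 oligodendrocyte lineage genes, Cnp and Sox10, 1 of 5 astrocyte genes, S100b, and 1 of 3 liver genes, Apoa1, and S5 alone at 1 of 3 erythroid genes, Hba-a1. None of 5 endothelial and 3 muscle genes carried a mark, and of 8 microglia and leukocyte genes only Tmem119 did, with all 3. The defining leukocyte gene Ptprc had no H3K27ac region, S5 or S2 peak at its ends. An ac4729 peak without ac647 also lay at Sox10 and Mbp of the oligodendrocyte lineage, Gja1 of the astrocyte and Csf1r of the leukocyte genes.

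An H3K27ac region of M00002 lay at 2514 genes, which was 11.6% of the protein-coding genes. S5 of M00001 lay at 4471 genes, or 20.7%, and S2 at 8738 genes, or 40.4%. All 3 marks were found at 1404 genes, or 6.49% (95% Clopper-Pearson interval 6.17 to 6.83, which like every interval here covers counting error over genes or peaks only). At 1323 of them the 3 marks met at the same gene end. H3K27ac without S5 or S2 was found at 411 genes, or 1.9%, and S5 and S2 without H3K27ac at 2677 genes, or 12.4%. The remaining marked genes were 626 with H3K27ac and S2, 73 with H3K27ac and S5, 4031 with S2 alone (18.6%) and 317 with S5 alone (1.47%), and 12092 genes (55.9%) carried none of the marks.

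**Figure D1:**
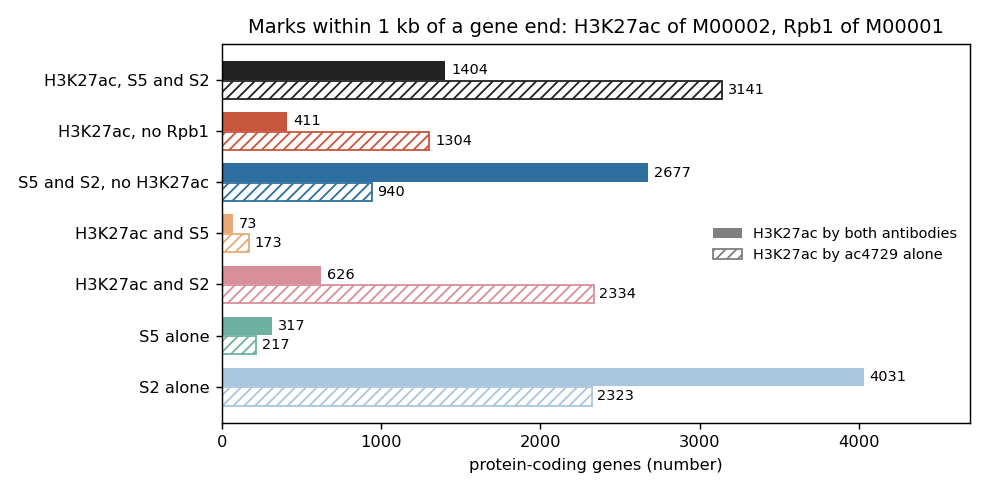
Number of protein-coding genes (horizontal axis) in each combination of H3K27ac of M00002 with Rpb1 S5 and S2 of M00001 within 1 kb of a gene end. Solid bars require both H3K27ac antibodies and hatched bars use ac4729 alone: genes with all 3 marks number 1404 and 3141, and genes with S5 and S2 but no H3K27ac number 2677 and 940.

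Genes with an H3K27ac region in M00002 mostly had polymerase in M00001. S5 and S2 were both present at 55.8% of the H3K27ac genes (53.9 to 57.8), against 14.0% of the genes without H3K27ac (13.5 to 14.5). S2 lay at 80.7% of the H3K27ac genes, against 35.1% of the others, and S5 at 58.8%, against 15.7%. In the other direction H3K27ac was present at 34.4% of the genes with S5 and S2 and 3.29% of those with neither. Genes with a single polymerase form lay between, with 18.7% for S5 without S2 and 13.4% for S2 without S5. The order of these single forms turned round with ac4729 as the only H3K27ac antibody. Then 173 of 390 genes with S5 and no S2 had H3K27ac, and 2334 of 4657 with S2 and no S5.

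Most genes counted as marked by Rpb1 alone were not free of acetylation. Of the 2677 genes, 1742 (65.1%) had an ac4729 peak within 1 kb, where 32.1% of all genes had one, while only 150 (5.60%) had an ac647 peak, where 12.9% of all genes had one. With ac4729 taken alone, 3141 genes carried all 3 marks, 1304 H3K27ac alone and 940 Rpb1 alone, so which mark alone was the more frequent class turned on the shorter ac647 list. With no H3K27ac peak of either antibody left within 5 kb, IgG-overlapping peaks included, 640 genes remained with S5 and S2. The class of H3K27ac alone also depended on the search, with 1304 genes for ac4729 alone and 1037 with S5 as the only Rpb1 list. Of its 411 genes, 404 had no Rpb1 peak of any kind within 1 kb, which the rule of the class largely fixes. Within 5 kb, 235 had none.

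The leading genes with all 3 marks encoded redox, ubiquitin, RNA-binding and mitotic proteins, among others. Fold enrichment, used here for each peak, is the authors' value at the summit over the peak caller's background, and its median over the whole list was 4.01 for ac4729, 4.20 for ac647, 4.05 for S5 and 3.87 for S2. Txn1, which encodes the thioredoxin that reduces protein disulfides, had folds of 8.24 with ac4729 and 9.92 with ac647 in M00002, and 9.26 with S5 and 8.10 with S2 in M00001. Its H3K27ac region, chr4:57956458-57957299, lay just upstream of the annotated start and overlapped both Rpb1 peaks. Usp48, which encodes a ubiquitin hydrolase, had the strongest ac4729 peak of the named genes, with folds of 12.9 with ac4729, 8.60 with ac647, 7.17 with S5 and 7.11 with S2. Its region was only 502 bp wide (chr4:137593597-137594098), and neither HA library had a peak there. Rbm14, an RNA-binding protein gene, shared its peaks with the overlapping readthrough model Gm21992 and had 9.31 with ac4729, 9.41 with ac647, 7.44 with S5 and 7.33 with S2. It differed from Usp48 in HA, with folds of 24.3 in M00002 and 13.3 in M00001.

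The other members of that set fell in the same range. Mastl, which encodes the mitotic kinase Greatwall, and Yme1l1, which encodes a mitochondrial protease, start head to head and shared peaks of 6.90 with ac4729, 9.89 with ac647, 7.16 with S5 and 9.27 with S2. Fcgrt, the neonatal Fc receptor, had 7.77 and 7.91 with ac4729 and ac647, and 7.15 and 8.46 with S5 and S2. The zinc finger genes Zfp868 and Zfp869 lie near each other on chromosome 8 and belong to a family of similar genes. Zfp868 had 10.2, 5.78, 9.33 and 10.1 with ac4729, ac647, S5 and S2, and Zfp869 had 7.53, 7.46, 7.97 and 7.75. 0610009B22Rik had 10.3, 9.37, 6.91 and 8.54 in the same order.

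The leading genes with H3K27ac in M00002 and no Rpb1 in M00001 included Tekt5 and Vmn2r87, known from sperm and from the vomeronasal organ. Snf8, a subunit of the ESCRT-II sorting complex, had 8.49 with ac4729 and 6.94 with ac647 in a region at chr11:96033937-96034829. Tekt5, which encodes a tektin of sperm flagella, had 7.46 with ac4729 and 7.31 with ac647 in a region at chr16:10394948-10396037 that spanned the low-CpG start shown above. At both genes HA was present in both lines, with folds of 12.3 in M00002 and 6.54 in M00001 at Snf8 and of 11.2 in M00002 and 4.11 in M00001 at Tekt5, and no S5 or S2 peak lay within 5 kb. Gm6583 had 9.22 with ac4729 and 9.67 with ac647, and also had HA in both lines, 12.9 in M00002 and 8.08 in M00001.

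Zfp236, a zinc finger gene, had 7.31 with ac4729 and 7.17 with ac647. Dmtn, an actin-bundling protein of the membrane skeleton, and Fgf17, a fibroblast growth factor gene, shared a region with 6.89 and 7.88. Both had an Rpb1 peak within 5 kb of an end, IgG-overlapping peaks included, and 2 S2 peaks lay inside Dmtn. At 3 of the named genes with a known strand the region lay at the far end and not at the start. These were the chemokine gene Ccl27b and the receptor gene Il11ra2, which overlap in 1 region with 6.79 and 7.49 and belong to a family of near-identical copies, and the vomeronasal receptor gene Vmn2r87 with 6.41 and 9.82. For such copies the placement of reads is uncertain.

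The leading genes with S5 and S2 but no H3K27ac region included Tbl2, Inpp5a, Qdpr and Anapc4, and 7 of the 10 had an ac4729 peak. Tbl2, an endoplasmic reticulum protein gene, had an ac4729 peak of 6.39 and no ac647 peak in M00002, and 10.0 with S5 and 11.3 with S2 in M00001. Inpp5a, an inositol phosphatase gene, had 6.18 with ac4729, 8.69 with S5 and the highest S2 value of these genes, 12.5. Both carried HA in both lines, with 10.8 in M00002 and 6.14 in M00001 at Tbl2 and 16.0 in M00002 and 9.47 in M00001 at Inpp5a.

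Qdpr and the pair Cdca2 and Kctd9 had no H3K27ac peak of either antibody within 5 kb. Qdpr, which encodes the reductase that regenerates tetrahydrobiopterin, had 10.1 with S5 and 10.7 with S2. Cdca2, which encodes a chromosome-bound regulator of mitotic exit, and its neighbour Kctd9 shared peaks of 11.9 with S5 and 10.0 with S2. Anapc4, a subunit of the anaphase-promoting complex, had 4.28 with ac4729, 9.75 with S5 and 10.9 with S2. Nmt2, which encodes an N-myristoyltransferase, had 9.80 and 10.6 with S5 and S2, and Hspbp1, a co-chaperone of Hsp70, had 9.38 and 11.1. Aldh6a1, a mitochondrial dehydrogenase gene, and Lin52, a subunit of the DREAM complex, start close together and shared 10.1 with S5 and 9.98 with S2.

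The marks occupied different places around the start. Among genes of 5 kb or more with a known strand, the S5 coverage of genes with all 3 marks was highest at the start itself, where 59.1% of 1022 genes were covered, and so was that of S2, at 77.9%. Acetylation was highest 200 bp inside the gene, at 58.3% with ac4729 against 49.2% at the start, and with ac647 at 35.2% against 21.5% at the start. The ac647 curve thus had a dip over the start, where the polymerase peaks were highest.

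Genes with H3K27ac alone had broader and more downstream acetylation. Their ac4729 coverage was highest 400 bp inside the gene (43.8% of 256 genes) and was still 36.7% at 1 kb, against 26.6% at 1 kb in genes with all 3 marks. The median ac4729 summit lay 253 bp inside the gene in genes with H3K27ac alone and 108.5 bp inside in genes with all 3 marks. In genes with Rpb1 alone the polymerase curves were close to those of genes with all 3 marks, with 59.3% covered by S5 and 81.6% by S2 at the start of 1944 genes, and ac4729 still formed a maximum of 36.1% at 200 bp.

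**Figure D2:**
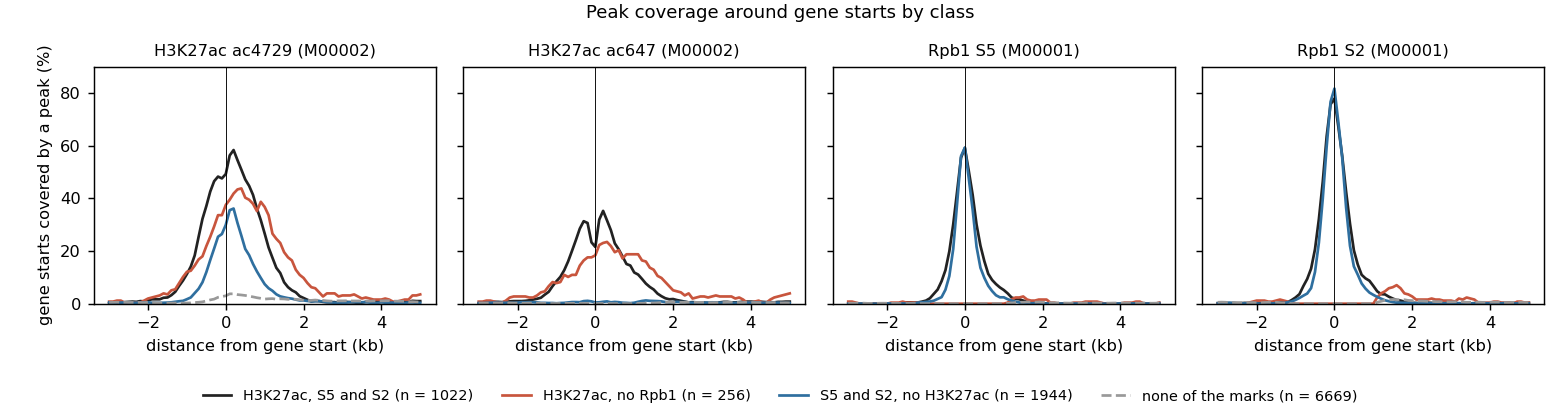
Share of gene starts covered by a peak (vertical axis, %) against distance from the start (horizontal axis, kb, positive inside the gene) for genes of 5 kb or more, with 1 panel per library and 1 line per class. S5 and S2 are highest at the start in both classes that carry them, while ac4729 and ac647 are highest 200 bp inside genes with all 3 marks.

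Marks of all classes sat mainly at the start and less at the far end. Where strand was known, H3K27ac lay at the start of 91.3% of the genes with all 3 marks (89.5 to 92.8) and of 80.1% of the genes with H3K27ac alone (75.2 to 84.4). In the class of H3K27ac alone, 19.9% of the genes had it at the far end only, against 8.74% of the genes with all 3 marks. S5 lay at the start of 95.7% of genes with all 3 marks and of 96.1% of genes with Rpb1 alone. S2 lay at both ends of 16.8% of the genes with all 3 marks (14.7 to 19.1) and of 8.96% of those with Rpb1 alone (7.80 to 10.2).

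Strength of the marks was only loosely tied within genes that carried all of them. Across the 1404 genes, Spearman's rho was 0.510 between S5 and S2 fold and 0.344 between ac4729 and ac647 fold, which are pairs from 1 line each. Between lines it was 0.0961 for ac4729 and S5, 0.196 for ac4729 and S2, 0.0786 for ac647 and S5, and -0.0386 for ac647 and S2. Region width had a rho of 0.0182 with S5 fold and -0.0887 with S2 fold. These values are descriptions across genes, which share libraries and are not independent replicates. Median S5 fold was 4.90 in genes with all 3 marks and 4.60 in genes with Rpb1 alone, and median S2 fold ran the other way, 5.71 in genes with all 3 marks and 6.13 in genes with Rpb1 alone.

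The widest H3K27ac regions at genes with all 3 marks were 2538 bp at D830031N03Rik, 2512 bp at Igdcc4, 2499 bp at Sars, 2476 bp at Btbd19 and 2446 bp at Arf1, a small GTPase of the Golgi. At Sars, the seryl-tRNA synthetase gene, the widest region lay at the far end. A wider one, of 2831 bp, was found without Rpb1 at the neurotrophin gene Ntf5. Median region width was 1007 bp in genes with H3K27ac alone and 895 bp in genes with all 3 marks.

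S2 peaks covered little of the gene body beyond the start. Their median share of the gene body was 1.80% in genes with all 3 marks, 0% in genes with H3K27ac alone and 1.39% in genes with Rpb1 alone. The share counts peaks at the gene ends, where the classes were chosen for S2 or for its absence. The lower value for H3K27ac alone is therefore in part fixed by the rule. Among genes of 20 kb or more with all 3 marks, the highest shares were 9.26% at Cwc22, a spliceosome factor gene with 14 S2 peaks inside it, 7.14% at the signalling adaptor Sh2b3, 7.06% at the nuclear import receptor Tnpo2, 6.46% at the mitochondrial carrier Slc25a25 and 6.42% at Relb, an NF-kappaB subunit. Median gene length was 18014.5 bp for all 3 marks, 21629 bp for H3K27ac alone and 21715 bp for Rpb1 alone, against 17329 bp for all genes.

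Over all H3K27ac regions of M00002, and not genes, 22.6% overlapped an S5 peak (21.8 to 23.4), 39.8% an S2 peak (38.9 to 40.8) and 18.6% both. Regions at gene ends did so most, with 47.3% for S5 and 67.3% for S2. Regions inside genes followed for S2, with 38.0%, and had 15.5% for S5. Regions between genes had 23.3% for S2 and 15.8% for S5. Stronger regions overlapped more often, 33.6% with S5 and 51.1% with S2 among the 20% of highest H3K27ac fold, against 13.1% and 28.9% among the 20% of lowest.

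In the other direction 25.3% of S5 peaks and 19.6% of S2 peaks of M00001 overlapped an H3K27ac region. For S5 the share was 27.2% at gene ends, 27.3% inside genes and 20.2% between genes. With ac4729 alone the S5 share was 44.3% overall and 60.6% at gene ends. Regions and peaks differed in where they lay: 22.1% of H3K27ac regions, 41.6% of S5 peaks and 38.4% of S2 peaks were within 1 kb of a gene end.

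HA, p65, p300 and Cbp took no part in defining the classes. HA of M00002 was present at 78.7% of genes with all 3 marks (76.5 to 80.8), 52.1% of genes with H3K27ac alone (47.1 to 57.0), 56.6% of genes with Rpb1 alone (54.7 to 58.5) and 25.2% of all genes. HA of M00001 was present at 46.9%, 21.2%, 23.3% and 10.1% of the same classes. The lower bound of 21.7 for Rpb1 alone lay inside the interval for H3K27ac alone (17.3 to 25.4), but with ac4729 as the only H3K27ac antibody the shares were 10.7% for H3K27ac alone and 17.0% for Rpb1 alone. The order turned round within 5 kb, with 27.3% for H3K27ac alone and 26.5% for Rpb1 alone, and when each list was limited to its 8000 strongest peaks, with 33.9% for H3K27ac alone and 29.4% for Rpb1 alone. Both lines had HA at 45.0% of genes with all 3 marks, 19.2% of genes with H3K27ac alone, 21.8% of genes with Rpb1 alone and 8.87% of all genes.

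p300 and Cbp of M00001 lay at a smaller share of genes with H3K27ac alone than of genes with Rpb1 alone. p300 was present at 4.14% of genes with H3K27ac alone (2.43 to 6.54) and 19.5% of genes with Rpb1 alone (18.0 to 21.0), beside 36.2% of genes with all 3 marks and 6.44% of all genes. Cbp of M00001 followed with 1.46% for H3K27ac alone, 7.77% for Rpb1 alone, 15.1% for all 3 marks and 3.31% of all genes. p65 of M00002 had 38.9% for H3K27ac alone (34.2 to 43.8) and 34.4% for Rpb1 alone (32.6 to 36.3), beside 60.1% for all 3 marks and 15.2% of all genes. p300 and Cbp came from the line of Rpb1 and p65 from the line of H3K27ac, so line and target cannot be told apart here. The titles of the p300, Cbp, S5 and S2 libraries also carry a shared code that no label explains, and its part in the result was not tested.

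IgG peaks lay at 1.64% of genes with all 3 marks, 2.19% with H3K27ac alone, 1.16% with Rpb1 alone and 1.44% of all genes for M00002, and at 0.973% or less for M00001 in these classes, where all genes had 0.421%. Since peaks that overlapped IgG were removed before the classes were made, these shares are in part fixed by the rule and are no check on the classes. The p300 share of Rpb1-alone genes was 21.2% where ac4729 was present and 16.3% where it was not. With no peak of the other mark within 5 kb, it lay at 4.68% of the genes with H3K27ac alone and 13.9% of the genes with Rpb1 alone. A neighbouring gene's end lay within 1 kb of 45.9% of genes with all 3 marks, 26.8% of genes with H3K27ac alone, 44.2% of genes with Rpb1 alone and 25.1% of all genes.

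**Figure D3:**
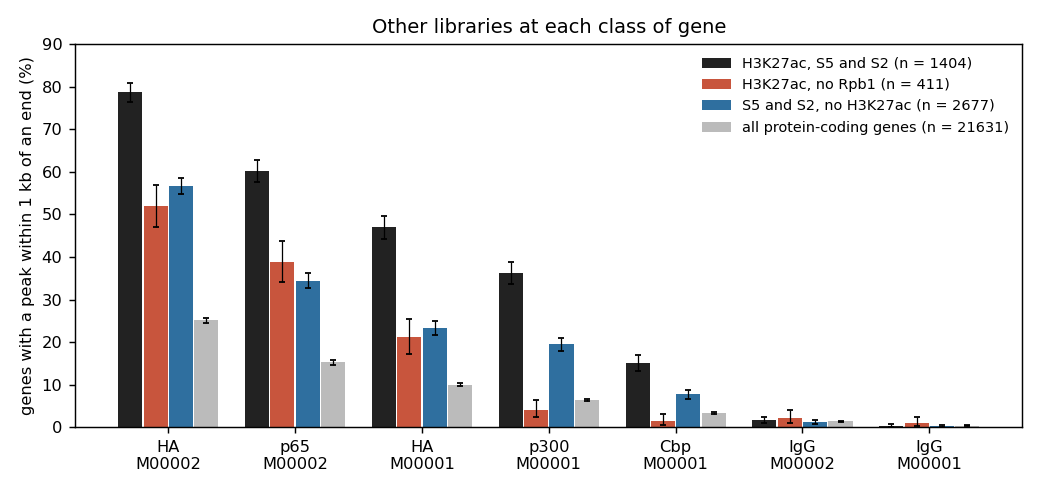
Share of genes with a peak within 1 kb of an end (vertical axis, %) for 7 libraries, of which IgG served to remove peaks before the classes were made and the others took no part, with exact 95% Clopper-Pearson intervals as error bars. p300 lies at 4.14% of genes with H3K27ac alone and 19.5% of genes with S5 and S2 alone, while HA of M00001 lies at 21.2% and 23.3%.

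Promoters of genes with H3K27ac alone held fewer CG dinucleotides than those of genes with all 3 marks or with Rpb1 alone. RefSeq promoters of 250 bases before to 50 after the start were matched for 17274 of the 21631 genes. Class values cover only genes with every mark of the class at the start. These were 1076 of 1404 genes with all 3 marks, 246 of 411 with H3K27ac alone and 2135 of 2677 with Rpb1 alone. The values for all genes have no such limit. The median number of CG dinucleotides in the 300 bases was 23 in genes with all 3 marks (quartiles 17 and 31), 12 in genes with H3K27ac alone (4.25 and 25), 23 in genes with Rpb1 alone (17 and 30) and 14 in all genes. Genes with S5 alone lay between, with 17 (8 and 26), and genes with S2 alone had 21. At least 10 were found in 91.8% of promoters with all 3 marks, 56.5% with H3K27ac alone, 94.3% with Rpb1 alone and 57.9% of all promoters. Counted at the gene start with ac4729 alone, the medians were 23, 15 and 23 in the same order.

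Motif letters were counted on both strands of the same windows. GGGCGG, the core of GC boxes, stood in 72.3% of promoters with all 3 marks, 52.0% with H3K27ac alone, 74.4% with Rpb1 alone and 46.9% of all. CCGGAAG, the letters bound by ETS factors, stood in 19.8%, 8.54%, 21.2% and 12.1% of the same groups. TATAAA ran the other way, in 69 of 1076 promoters with all 3 marks, 27 of 246 with H3K27ac alone, 115 of 2135 with Rpb1 alone and 2319 of 17274 in all. In the 215 promoters of genes with S5 alone the counts were 117 with GGGCGG, 25 with CCGGAAG and 28 with TATAAA. Matches are descriptions of letters and overlap with CpG content, since GGGCGG and CCGGAAG each hold a CG.

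**Figure D4:**
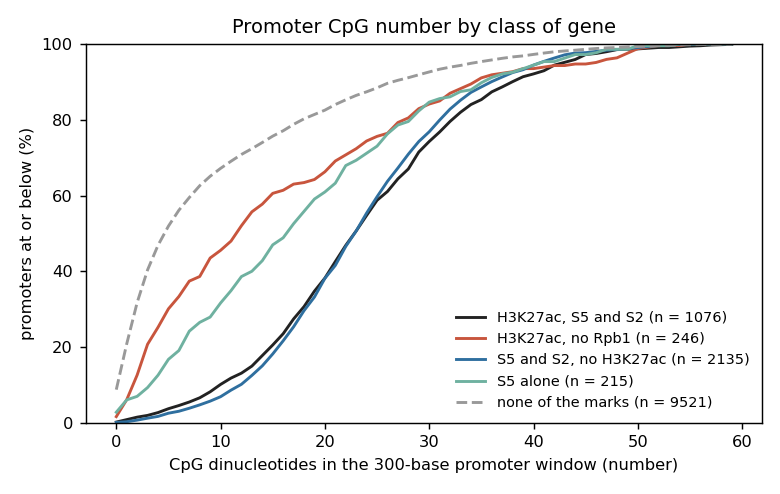
Cumulative share of promoters (vertical axis, %) at or below a number of CG dinucleotides in the 300-base window (horizontal axis) for 5 classes of gene. Marked classes hold only genes with every mark of the class at the start. The lines of genes with all 3 marks and of genes with S5 and S2 alone run together with a median of 23, and the line of H3K27ac alone lies to their left with a median of 12.

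Lists of genes for transcription and cell identity differed in their make-up. Heat shock and chaperone genes had the largest share with all 3 marks of the lists examined, 9 of 15, where 6.49% of all genes did. Hsp90b1, the endoplasmic reticulum Hsp90, had 5.40 with ac4729, 5.64 with ac647, 6.19 with S5 and 6.48 with S2. Dnajb1, a co-chaperone of Hsp70, had 5.39 with ac4729, 4.24 with ac647, 7.39 with S5 and 5.36 with S2. Hspd1 and Hspe1, the mitochondrial chaperonin pair, share their peaks and were counted as 2 of the 9. The other 3 genes with S5 and S2, Hsp90aa1, Hspa4 and Hsph1, each had an ac4729 peak and no region of both antibodies, and S2 was present at all 15.

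Immediate early genes, which are induced within minutes of growth signals, had S5 at 16 of 22, where 20.7% of all genes did. All 3 marks were found at 6 of them, among them Fos with 9.60 for ac4729, 5.68 for ac647, 4.68 for S5 and 3.99 for S2, Jun with 5.33, 3.70, 4.23 and 3.74, and Dusp1, a phosphatase that ends MAP kinase signals, with 6.08, 4.28, 5.25 and 5.07. S5 without S2 was found at Egr3, Myc and Jund. Over all genes 6.49% had all 3 marks and 1.47% had S5 alone. None of the 22 carried H3K27ac alone, which is near the share of 1.9% of all genes.

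Cytosolic ribosomal protein genes had Rpb1 alone as their largest class, with 38 of 86, where 12.4% of all genes were in it. Of the 38, 32 had an ac4729 peak, so with that antibody alone 6 remained in the class. All 3 marks were found at 13, including Rpl10 with 6.69 for ac4729, 7.63 for ac647, 6.92 for S5 and 4.91 for S2. Of 39 proteasome subunit genes, 14 had S2 alone, 13 had Rpb1 alone, 11 of these with ac4729, and 4 had all 3 marks. Over all genes the shares were 18.6% for S2 alone, 12.4% for Rpb1 alone and 6.49% for all 3 marks. The 4 proteasome genes with all 3 marks (10.3%) were thus near the share of all genes. Psmd14, a deubiquitinase of the lid, had 8.39 with ac4729 and no ac647 peak, and 4.81 with S5 and 7.84 with S2.

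Genes of the transcription machinery mostly had S2. It was present at all 25 elongation genes, where 40.4% of all genes did, and 5 had all 3 marks and 7 Rpb1 alone, where 6.49% and 12.4% of all genes did. Cdk12, a kinase of the Rpb1 tail, had 7.38 with ac4729, 5.78 with ac647, 3.64 with S5 and 3.65 with S2, and Hexim1, an inhibitor of the elongation factor P-TEFb, had 6.09, 3.54, 6.15 and 4.40. Of 18 initiation and pausing genes 16 had S2, 2 had all 3 marks and 7 Rpb1 alone, and of 13 polymerase subunit genes 9 had S2, 2 all 3 marks and 3 Rpb1 alone, so that 2 members of each list stood against a share of 6.49% of all genes. Polr2a, which encodes Rpb1 itself, had all 3, with 6.11 for ac4729, 7.91 for ac647, 4.68 for S5 and 3.14 for S2. Of 10 SR splicing factor genes 4 had all 3 marks.

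Among genes for the H3K27 mark, Ep300, which encodes p300, had all 3 marks with 5.61 for ac4729, 5.91 for ac647, 4.74 for S5 and 4.52 for S2. Crebbp, which encodes Cbp, had an ac4729 peak of 4.29 without ac647, and 4.11 with S5 and 4.68 with S2. Brd2, a reader of acetylated histones, had H3K27ac alone, with 4.89 for ac4729 and 7.16 for ac647.

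Of genes tied to NF-kappaB and to ependymoma, 3 of 25 (12%) and 3 of 18 (16.7%) had H3K27ac alone, where 1.9% of all genes did. This was not particular to these lists, since 2 of 16 G1 cell cycle genes (12.5%) and 1 of 10 radial glia genes had it too. Ccnd1 is a member of the NF-kappaB, ependymoma and G1 lists. Of the NF-kappaB genes 3 had all 3 marks and 6 Rpb1 alone, where 6.49% and 12.4% of all genes did. Relb had 6.56 with ac4729, 5.63 with ac647, 7.88 with S5 and 7.77 with S2, and Icam1, an adhesion molecule, had 5.94, 2.96, 3.72 and 3.05. Nfkb1, which encodes the p50 precursor, had H3K27ac alone with 5.93 and 4.65, as had the chemokine gene Ccl2 with 2.58 and 2.84. Cxcl1, another chemokine, and Nfkbia, the inhibitor IkappaBalpha, had S5 and S2 without an H3K27ac region. Cxcl1 had 6.32 with ac4729, 5.71 with S5 and 3.16 with S2. Nfkbia had peaks of both antibodies within 1 kb, 4.32 with ac4729 and 3.43 with ac647, that formed no shared region.

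Of the 18 genes linked to ZFTA-RELA ependymoma, Rela had all 3 marks, with 3.54 for ac4729, 3.43 for ac647, 3.73 for S5 and 6.88 for S2. Ccnd1, the G1 cyclin, Igf2, a growth factor gene, and Lhx2, a forebrain transcription factor, had H3K27ac alone. Ccnd1, which the NF-kappaB list also holds, had 4.45 with ac4729 and 3.18 with ac647, Lhx2 had 3.73 and 4.23, and Igf2 had 2.94 and 3.26. Notch1 and its ligand gene Jag1 had S5 and S2 without H3K27ac, with 3.70 and 3.31 at Notch1 and 3.85 and 4.15 at Jag1. Endogenous Rela and a fusion that holds Rela sequence cannot be told apart from these peaks.

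Replication-dependent histone genes had the largest share with S5 alone of the lists examined. S5 was present at 52 of 63, where 20.7% of all genes had it, and S2 at 21, which is 33.3% against 40.4% of all genes. S5 alone was found at 24 of them, where 1.47% of all genes were in that class. S2 was missing at 59.6% of the histone genes with S5, against 8.72% of all genes with S5 and 10.8% of 490 other S5 genes among the shortest 20% of genes. H4c3, an H4 gene whose promoter is shown above, had no ac4729 peak, 4.10 with ac647, 7.59 with S5 and no S2 peak.

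The histone genes without S2 all lay on chromosome 13. Of 42 S5-marked histone genes on chromosome 13, 31 lacked S2, while all 10 on chromosome 3 had S2. H3c6 had 4.29 with ac4729 and 6.92 with ac647, the highest S5 value of the list, 11.4, and no S2 peak. On chromosome 3, H3c13 and H2bc18 shared peaks of 4.09 with ac4729, 3.57 with ac647, 8.64 with S5 and 5.62 with S2. For histones ac647 gave more genes than ac4729, 45 against 30, the reverse of all genes. Genes in these clusters are short, start head to head and are near-identical, and the 52 genes drew on 42 distinct S5 peaks, so counts of genes overstate counts of sites and read placement is uncertain.

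Hox and olfactory receptor genes were nearly free of the marks. None of 39 Hox genes carried one, and 1104 of 1110 olfactory receptor genes carried none, where 55.9% of all genes carried none. Of the other 6, 4 had S5 alone, 1 had H3K27ac alone and 1 had S5 and S2.

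**Figure D5:**
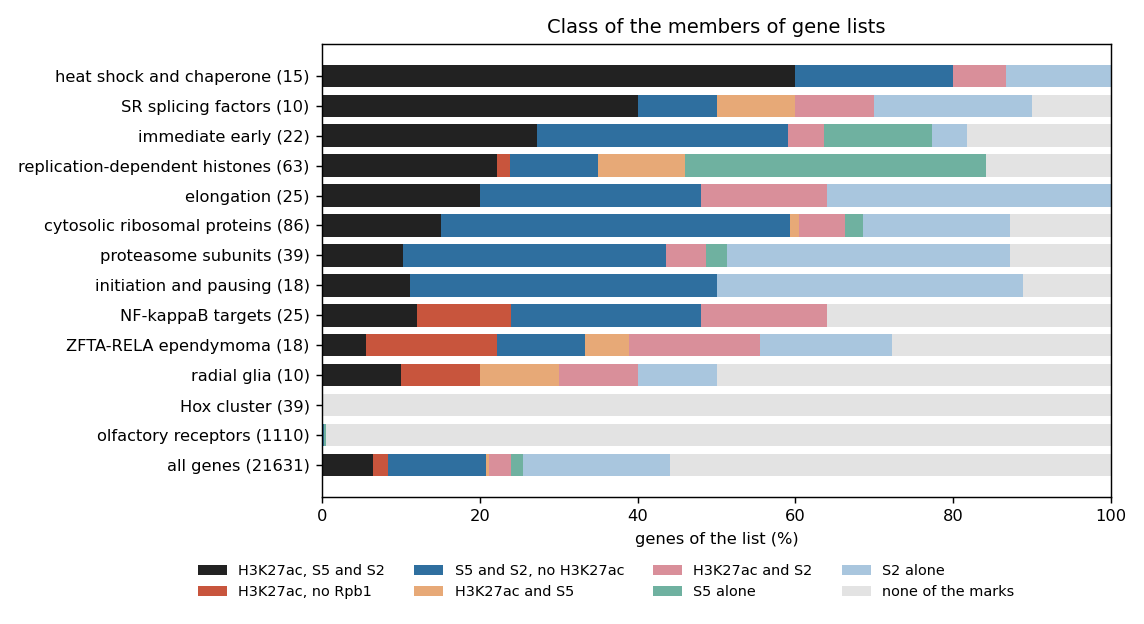
Share of each gene list (horizontal axis, %) in each combination of marks, with the number of genes in brackets and all protein-coding genes in the lowest bar. Heat shock genes have the largest share with all 3 marks (9 of 15), histone genes a large share with S5 alone (24 of 63) and Hox genes none of the marks.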

How the data were processed

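Narrow peak lists of 11 CUT&RUN libraries were used, 1 per target and line. The submitters' processing notes name, with no settings, the build mm10, MACS2, Bowtie2 2.3.5.1, FastQC, Trim Galore and deepTools. The settings and the control used in calling are not given in the sources used here. Peaks were called per library. The deposited lists give each peak a score (not analysed here), a fold enrichment (a ratio), a −log10 p-value and a −log10 q-value, in the MACS2 column order; the lowest −log10 p in the deposited lists was near 3.

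From these, peaks with at least 1 bp of overlap with IgG of either line were removed, peaks of both H3K27ac antibodies were merged where they overlapped, and genes were taken from RefSeq (GRCm38.p6, the same assembly as mm10). A mark was called within 1 kb of either gene end. Clopper-Pearson intervals of 95% used scipy 1.17.1; tables used Python 3.11.15, numpy 2.4.6 and pandas 2.3.3. The calls were tested on simulated peaks.

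With 1 library per target no test was possible, and counts and shares are given beside all genes. Named were the 10 genes of highest mean within-list fold rank in each of the 3 classes, the 5 with the largest S2 share of the gene body, those with the widest regions, and up to 4 members of each list in each class. Not all of these are reported here, and some list members were chosen for their role after their values were seen. Genes, members and lists were chosen with earlier results of these data known. Alternatives varied the gene window, gene end, IgG removal, peak strength, antibody, Rpb1 list, overlap and the meaning of absence; those with ac4729 alone for class shares, lists and promoters, and with the 8000 strongest ac4729 peaks, were chosen after seeing the data.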

Additional observations from a re-analysis of the deposited data

How the results depend on the processing

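No paired analysis was possible because each target has 1 library and the numbers in the labels belong to the lines. Of 160 recomputed main values 80 stayed within their interval, or within 1.5 times for counts, and 80 moved; the cause was not tested. Values are given for all 3 marks, H3K27ac alone and Rpb1 alone in that order unless named.

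Gene counts with ac4729 alone were 3141, 1304 and 940, which turned round the order of the classes of 1 line; H3K27ac alone was 1017 genes with the 8000 strongest peaks of each list and ac4729 alone. With −log10 q of at least 5, 271 genes had all 3 marks and 1187 Rpb1 alone; with the 8000 strongest peaks 567 had all 3, and within 5 kb 2219 did. H3K27ac alone held 271 genes at the gene start and 1037 with S5 alone as Rpb1, and Rpb1 alone held 6708 with S2 alone. With no peak of the absent mark within 5 kb, 235 and 640 genes stayed in the classes of 1 line.

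Shares of H3K27ac regions with S5, with S2 and with both were 5.78%, 14.4% and 4.06% at an overlap of at least 50%, 25.1%, 42.0% and 21.2% with IgG-overlapping peaks kept, 9.94%, 28.6% and 8.69% at q of at least 5, 14.4%, 29.4% and 12.0% with ac4729 alone, 15.8%, 29.7% and 12.3% with ac647 alone, and 17.7%, 33.1% and 13.9% for the shared stretch. The 8000 strongest peaks gave 29.1% for S5 and 26.6% for S2, with S5 above S2 where it was below. Shares of S5 and of S2 peaks in H3K27ac were 22.5% and 17.0% at 50% overlap, 18.2% and 10.2% at that q limit, 12.2% and 10.9% for the strongest peaks, 44.3% and 39.5% with ac4729 alone, and 21.3% and 17.3% for the shared stretch; S2 had 20.4% with IgG-overlapping peaks kept and 20.3% with ac647 alone.

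HA of M00001 lay at 52.5%, 27.3% and 26.5% within 5 kb, 52.9%, 33.9% and 29.4% with the strongest peaks, and 35.8%, 10.7% and 17.0% with ac4729 alone. H3K27ac alone was above Rpb1 alone in the first pair of these settings and below it in the reported values. It lay at 41.4% and 16.5% of the first pair of classes within 250 bp, at 39.1% of all 3 marks and 20.8% of Rpb1 alone at q of at least 5, and at 14.4% of Rpb1 alone under strict absence. p300 lay at 13.7%, 0.338% and 9.60% at q of at least 5 and 27.9%, 2.22% and 16.4% with ac4729 alone. For all 3 marks it was 33.2% within 250 bp, for H3K27ac alone 7.61% within 5 kb, for all 3 marks and Rpb1 alone 40.0% and 24.6% with the strongest peaks, and for Rpb1 alone 13.9% under strict absence.

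Ribosomal protein genes with Rpb1 alone numbered 15 at q of at least 5, 5 under strict absence and 6 with ac4729 alone, and histone genes with S5 alone 37 with the strongest peaks. For Rpb1 alone the median length was 19089 bp at q of at least 5, and the S2 share of the gene body was 1.24% within 5 kb, 1.11% at that q, 1.04% for the strongest peaks and 1.12% under strict absence; for all 3 marks it was 1.51% with the strongest peaks. Of 794 recomputed values for other lists and libraries 582 kept within their limits and 212 moved.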

Other observations

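The classes were spread unevenly over chromosomes. Genes with all 3 marks made up 10.6% of the genes on chromosome 3 and 9.93% on chromosome 19, against 1.66% on chromosome X. H3K27ac alone was most frequent on chromosome 4, at 2.86% of its genes, and Rpb1 alone on chromosome 8, at 17.4%, against 5.69% on X. S5 lay at 7.87% and S2 at 17.0% of the genes on X, and an H3K27ac region at 3.52%.

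Genes at the edge of the window were few. For H3K27ac the nearest region lay 901 to 1000 bp from the end of 53 genes, just inside the limit, and 1001 to 1100 bp from the end of 66, just outside; the counts were 54 and 45 for S5 and 90 and 105 for S2. Rps29, a ribosomal protein gene in the class of Rpb1 alone, had an ac647 peak of 29.2 and an ac4729 peak of 5.64 within 1 kb that formed no shared region, beside 9.60 with S5, 9.16 with S2, no HA peak in M00002 and an HA peak of 20.2 in M00001.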
